A study of Mus musculus with 2 samples.

Results

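The clustered histone genes are the copies of H1, H2A, H2B, H3 and H4 that mouse chromosomes carry in groups, under the symbols Hist1h, Hist2h, Hist3h and Hist4h. Members were taken as every such symbol with at least 20 UMIs (unique molecular identifiers, each standing for 1 captured RNA molecule) summed over both deposited matrices. This left 62 of 70 symbols, out of 18396 genes with as many UMIs. They were thus chosen by their symbol and their total UMI count, and later grouped by their level in cycling cells. They comprised 5 genes for the linker histone H1, 16 for H2A, 17 for H2B, 11 for H3 and 13 for H4. Chromosome 13 held 50 of them, chromosome 3 held 8, chromosome 11 held 3 and chromosome 6 held Hist4h4 alone (GENCODE M21, GRCm38). At the limit, Hist1h2ah (22 UMIs) and Hist1h3h (28 UMIs) lay just inside, and Hist1h1t (15 UMIs) and Hist1h2al (12 UMIs) just outside. Hist2h2aa2, Hist2h3c1 and Hist1h2ba were among the remaining symbols and had 0 UMIs. The member Hist3h2bb-ps is annotated as a pseudogene.

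The cells were CD45+ cells sorted from B16F10 melanomas, a transplantable mouse tumour line, grown under the skin and taken on day 10. The WT library came from Kcnj2f/f mice, whose Kcnj2 gene has floxed alleles that Cre can delete. The KO library came from Lyz2-Cre-Kcnj2f/f mice, in which the Lyz2 promoter drives Cre in myeloid cells, so that lymphocytes keep the allele. The injected tumour cells are of a separate line and do not come from these mice. The labels give no age. Each library pools tumours from 3 mice and stands alone for its genotype, so no test was possible, and every interval below covers counting error only.

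Core histones form the octamer around which DNA is wrapped, and H1 binds the DNA between octamers. Cells copying their DNA need a large supply of new histones, and the clustered genes are known to be transcribed mainly in S phase. Their typical mRNA ends in a short stem-loop, bound by the protein SLBP, in place of a poly(A) tail. Some clustered genes also give polyadenylated transcripts, which non-dividing cells can keep. The libraries were made with the 10x Chromium 3′ v3 kit, which captures RNA through its poly(A) tract, so the levels below are those of captured transcripts and not of all histone mRNA.

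The stem-loop was searched in the annotated transcripts as GG, any 4 bases, TT, any 2 bases, the 4 bases that pair with the first 4, and CC, on the transcript strand. It was present in the models of 41 of 62 members and in 301 of 141767 transcripts of all genes (0.212%). The commonest form served 24 members of H1, H2A, H2B and H3, whereas 7 members with another form were all H4 genes. The sites are those of members on which the later results turn, with the stem arms in capitals and the loop between them.
Hist1h3c: aaaaaaaGGCTCTtttaAGAGCCacctaag
Hist1h2ap: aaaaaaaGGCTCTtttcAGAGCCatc
Hist1h2ae: aaacaaaGGCTCTtttcAGAGCCattcact
Hist1h1c: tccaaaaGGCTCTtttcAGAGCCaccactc
Hist3h2a: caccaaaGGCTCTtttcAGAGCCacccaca
Hist4h4: ccacaaaGGCCCTtttcAGGGCCcacaaag
Hist2h4: ccctaacGGCCCTttttAGGGCCaaccaca

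These sites differ little, but the distance from the stem-loop to the end of the annotated transcript differs greatly. The model of Hist1h2ap ends 3 bases past the stem-loop and that of Hist1h3c 74 bases past it. The models of Hist1h1c, Hist3h2a, Hist2h4 and Hist4h4 run on for 840, 1643, 1257 and 2445 bases and hold AATAAA or ATTAAA, the usual poly(A) signals, in their last 60 bases. Hist1h2ae lies between them, with 151 bases and such a signal.

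After filtering, the WT library held 8936 cells (median 4398.5 UMIs) and the KO library 5686 (median 8013 UMIs). Kcnj2 gave 111 UMIs (22.9 CPM, counts scaled to 1e6 UMIs) in WT macrophage-like cells and 86 UMIs (9.30 CPM) in KO ones, but 3′ tags check the deletion only if the deleted part holds them, and the labels do not name that part. In total, 61 barcodes were kept in both libraries, and 44 of them were melanoma-like in both. Of these 44, 17 had over 100000 UMIs in one library and 512 to 824 in the other. Melanoma-like cells, 116 in WT and 89 in KO, had 46.1 and 10.5 CPM of Ptprc, the gene for CD45, against 1199 and 878 CPM over all cells, which goes against the sort label. They held 33.0% of the UMIs of cycling cells in WT and 36.5% in KO, so results in cycling cells are also given without them or without the shared barcodes.

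Cycling cells were those with at least 3 UMIs of Mki67, Top2a and Birc5 together, 603 in WT and 379 in KO (6.75% and 6.67% of cells). Non-cycling cells had 0 such UMIs and numbered 6924 in WT and 4487 in KO. A member was called replication-linked when its CPM was at least 4-fold higher in cycling than in non-cycling cells in both libraries, and kept outside the cycle when the ratio was under 2-fold in both. By this rule 23 members were replication-linked, beside 8.18% of the 18396 genes, 14 were kept outside the cycle, beside 74.4%, and 25 lay in between. The contrast belongs to the rule that formed the groups, so these counts and the values in the next paragraphs are a description. The median log2 ratio of cycling over non-cycling CPM was 1.61 in WT and 2.04 in KO over the members, and 0.03 and 0.21 over all genes.

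H2A genes gave the most abundant transcripts of cycling cells, and H2A was the histone with most replication-linked members, 9 of 16. Hist1h2ap reached 723 CPM (95% Poisson interval 706 to 740) in WT cycling cells and 574 CPM in KO ones, against 64.0 and 39.7 CPM in non-cycling cells. Hist1h2ae reached 613 CPM in WT and 514 CPM in KO cycling cells, against 37.0 and 18.1 CPM. Both genes were thus 11.3- to 28.4-fold higher in cycling cells, with log2 ratios of 3.50 and 3.86 for Hist1h2ap and of 4.05 and 4.83 for Hist1h2ae. Hist1h2ab was far lower in level but steeper in contrast, with 33.9 CPM in WT and 46.6 CPM in KO cycling cells and 0.81 and 0.65 CPM in non-cycling cells. Its higher KO level rested on melanoma-like cycling cells, which had 66.4 CPM in KO. In cycling cells of the named immune classes it had 44.1 CPM in WT and 36.1 CPM in KO. Every 90-base stretch of the last 300 bases of Hist1h2ap also occurs in another gene's transcript, mostly other H2A genes, and for Hist1h2ab 64.5% of them do, so the split of reads among these copies is uncertain.

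H3 included the steepest contrast of any member above 50 CPM in cycling cells. Hist1h3c stood at 75.1 CPM (69.7 to 80.8) in WT and 73.6 CPM in KO cycling cells, and at 0.78 and 0.87 CPM in non-cycling cells. Its log2 ratios were 6.58 (95% binomial interval 6.03 to 7.19) in WT and 6.41 (5.90 to 6.97) in KO. The near-equal level in the libraries rested on melanoma-like cells, which held 384 of the 727 Hist1h3c UMIs of KO cycling cells; in cycling cells of the named immune classes it was 97.2 CPM in WT and 56.4 CPM in KO. Hist1h3b followed with log2 ratios of 6.12 and 6.73 at a lower level, 14.1 CPM in WT and 17.2 CPM in KO cycling cells. Not all H3 genes were of this kind: Hist1h3a (23.8 against 16.5 CPM in WT, 18.2 against 9.77 CPM in KO) and Hist1h3d were kept outside the cycle. For Hist1h3a this rested on melanoma-like cells being among the cycling cells. In cycling cells of the named immune classes it had 32.8 CPM in WT and 24.2 CPM in KO, over 2-fold the non-cycling level in KO.

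The 5 linker histone genes covered the whole range. Hist1h1b, which encodes the subtype H1.5, was replication-linked, with 382 CPM in WT and 296 CPM in KO cycling cells against 44.4 and 18.5 CPM in non-cycling cells. Hist1h1a, for the subtype H1.1, was also replication-linked at a lower level (36.5 against 6.82 CPM in WT, 24.6 against 3.25 CPM in KO). Hist1h1e (H1.4) and Hist1h1d (H1.3) lay in between, because both were abundant without the cell cycle markers. Hist1h1e stood at 344 against 194 CPM in WT and at 313 against 90.9 CPM in KO. Its gene model overlaps Hist1h2be and Gm11398 on the same strand, which makes the assignment of its reads uncertain. Hist1h1c (H1.2) was kept outside the cycle: its 130 CPM in WT cycling cells lay below the 165 CPM of non-cycling cells (log2 ratio -0.34, -0.42 to -0.25), and in KO the values were 121 and 111 CPM (0.12, 0.02 to 0.21). The lower WT value rested on melanoma-like cycling cells, which had 54.1 CPM. Cycling cells of the named immune classes had 168 CPM in WT and 128 CPM in KO.

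H2B was divided, with 7 of 17 members replication-linked, 8 in between and 2 kept outside the cycle. Among the replication-linked ones were Hist1h2bj (57.9 against 7.98 CPM in WT, 34.5 against 2.44 CPM in KO), Hist1h2bb (37.5 against 7.69 CPM in WT, 29.0 against 3.06 CPM in KO) and Hist1h2bm (36.0 against 3.19 CPM in WT, 14.2 against 1.16 CPM in KO). Hist1h2bc, known for polyadenylated transcripts in resting cells, stood at 95.5 against 70.7 CPM in WT and 85.6 against 38.2 CPM in KO. It thus passed the limit for being kept outside the cycle in WT (log2 ratio 0.43) and missed it in KO (1.17), so it counts as in between. For Hist1h2bc the miss in KO rested on melanoma-like cycling cells, which had 111 CPM there. Cycling cells of the named immune classes had 106 CPM in WT and 71.7 CPM in KO, under 2-fold the non-cycling level in both libraries. Hist3h2ba, kept outside the cycle, had 19.7 against 16.8 CPM in WT and 6.89 against 8.17 CPM in KO. For Hist3h2ba the lower KO value rested on melanoma-like cycling cells, which had 0.278 CPM there. Cycling cells of the named immune classes had 28.01 CPM in WT and 11.05 CPM in KO. Both values lay above the non-cycling level, by under 2-fold.

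By its median log2 ratio (0.66 in WT, 0.92 in KO) H4 was the histone least tied to the cycle. Of its 13 members 7 were kept outside the cycle, beside 74.4% of all genes. It had 1 replication-linked member, near the 8.18% share of all genes. That member, Hist1h4f, lay just inside the 4-fold limit (log2 ratios 2.04 and 2.02) on few UMIs, and Hist1h3f lay just outside it because of its 1.89 in WT. The most abundant H4 gene in cycling cells, Hist1h4d, had 102 against 26.2 CPM in WT and 121 against 21.5 CPM in KO. Hist2h4 was lower in cycling cells in both libraries, with 9.20 against 18.9 CPM in WT and 4.46 against 8.09 CPM in KO. Over all cycling cells, Hist4h4 (10.4 against 14.8 CPM in WT, 6.99 against 8.28 CPM in KO) and the H2A gene Hist3h2a (22.8 against 29.8 CPM in WT, 22.1 against 34.8 CPM in KO) also had their higher level in non-cycling cells. For Hist4h4 the KO direction rested on melanoma-like cycling cells, which had 3.06 CPM. KO cycling cells of the named immune classes had 9.07 CPM, above the non-cycling level. The WT ones, with 12.4 CPM, stayed below it. Hist2h2aa1, with a KO log2 ratio of 1.0 just under 2-fold, was the last member inside the limit for being kept outside the cycle. The plot of member levels in cycling against non-cycling cells shows these groups.

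**Figure D1:**
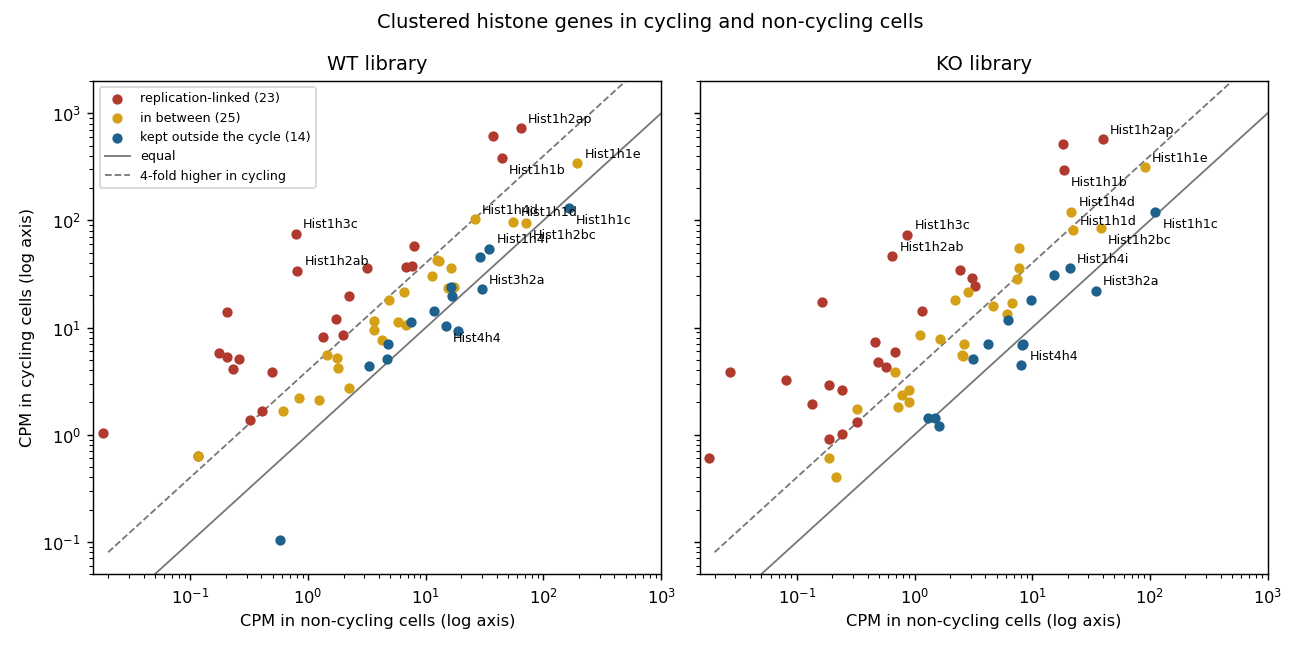
CPM of each of the 62 members in non-cycling cells (x axis, log) and cycling cells (y axis, log), 1 point per member, for the WT and the KO library, coloured by group; the solid line marks equal levels and the dashed line 4-fold. A member with 0 UMIs in non-cycling cells is drawn at the left edge. Hist1h3c lies far above the dashed line (75.1 CPM in WT, 73.6 CPM in KO), and Hist1h1c lies close to the solid line, under it in WT and just above it in KO.

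Summed over all members, the level was 3396 CPM in cycling and 1017 CPM in non-cycling cells of WT, and 2796 and 559.5 CPM in KO. Replication-linked members made up 61.4% of the histone UMIs of cycling cells in WT and 59.6% in KO, and 17.9% and 16.3% of those of non-cycling cells. Non-cycling cells of unnamed clusters with under 2000 UMIs stood apart, with 4319 CPM over 1412 WT cells and 3433 CPM over 266 KO cells, and they enter the non-cycling sums; their part in the WT and KO ratios was not tested. The make-up of the pool therefore differed with the state: H2A genes gave 45.7% of the histone UMIs of WT cycling cells and 45.9% of those of KO ones, whereas H1 genes gave 45.7% and 44.0% in non-cycling cells.

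The replication-linked sum followed the marker count in steps. Over cells with 0, 1 to 2, 3 to 5, 6 to 11 and 12 or more marker UMIs it was 182, 192, 374, 988 and 3354 CPM in WT. In KO it was 91.5, 95.5, 232, 281 and 2533 CPM. Cells with 1 to 2 marker UMIs thus resembled cells with none, and most of the difference came with 12 or more. The median depth of cycling cells was also higher, 9049 UMIs in WT and 17205 in KO against 3720 and 7237 in non-cycling cells. The part of depth in these sums was not tested.

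Position within the cycle was read from 24 S-phase genes, among them the Mcm helicase genes and Pcna, and 24 G2/M genes, among them Cdk1 and Ccnb1. Each cycling cell was called S-leaning when its share of the S list total exceeded its share of the G2/M list total, and G2/M-leaning otherwise; this divides a range and names no type. Over all cycling cells the histone sum was lower in S-leaning than in G2/M-leaning cells, with a log2 ratio of -0.51 in WT and -0.29 in KO. Of 52 members with at least 50 UMIs there, 17 were at least 1.5-fold lower in S-leaning cells in both libraries, beside 10.8% of all genes, and 0 were higher, beside 6.5%. Melanoma-like cells, however, held 51.2% of the G2/M list UMIs of cycling cells in WT and 66.9% in KO, and so set the division.

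With the lists scaled over cycling cells of the named immune classes alone, 41 of 51 members were at least 1.5-fold lower in S-leaning cells in both libraries, beside 3.69% of all genes, and 0 were higher, beside 2.81%. The histone sum was 3239 CPM in S-leaning and 7239 CPM in G2/M-leaning WT cells, and 2157 and 4595 CPM in KO. The median log2 ratio was -1.28 in WT and -1.19 in KO over the members, and -0.04 and -0.00 over all genes. The lower level on the S side was found in members of all 3 groups, with exceptions: Hist2h4 had 12.8 against 9.48 CPM in WT and 3.25 against 8.84 CPM in KO, and the interval of Hist1h4a held 0 in both libraries. Hist1h2ap stood at 810 against 1736 CPM in WT and 612 against 1334 CPM in KO, and Hist1h3c at 54.3 against 165 CPM and 29.8 against 97.7 CPM. Hist1h1c, from the group kept outside the cycle, had 120 against 244 CPM and 93.5 against 182 CPM. The difference was smaller for the linker gene Hist1h1a, with 47.4 against 67.3 CPM in WT and 34.2 against 45.1 CPM in KO.

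Finer steps gave the lowest level at the S end. With immune cycling cells divided by the S share in 5 steps of equal width, from the G2/M end to the S end, the replication-linked sum was 3904, 6555, 5041, 3112 and 777 CPM in WT. In KO it was 1925, 4200, 4044, 2176 and 370 CPM. Over these pooled classes the highest value was next to the G2/M end in both libraries and the lowest at the S end. The place of the peak was less clear within classes: in WT CD8 T-like cells the first 2 steps were level (7386 and 7409 CPM). In KO cDC1-like and cDC2-like cells together, the middle step (3600 CPM on 18 cells, 3401 to 3807) overlapped the step before it (3422 CPM on 20 cells, 3247 to 3603). In WT these cells had 4479 CPM on 8 cells in the middle step and no value for the step before it, so their peak is not known. The low value at the S end was present in both of these sets in both libraries. Each pooled step held 68 to 145 WT and 44 to 113 KO cells. The replication-linked sum also rose with the Mki67, Top2a and Birc5 UMIs by which cells were called cycling. The part of that marker count in the order of the steps was not tested. The members kept outside the cycle ran the same way over a smaller range, from a highest 815 to a lowest 212 CPM in WT and from 474 to 165 CPM in KO.

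**Figure D2:**
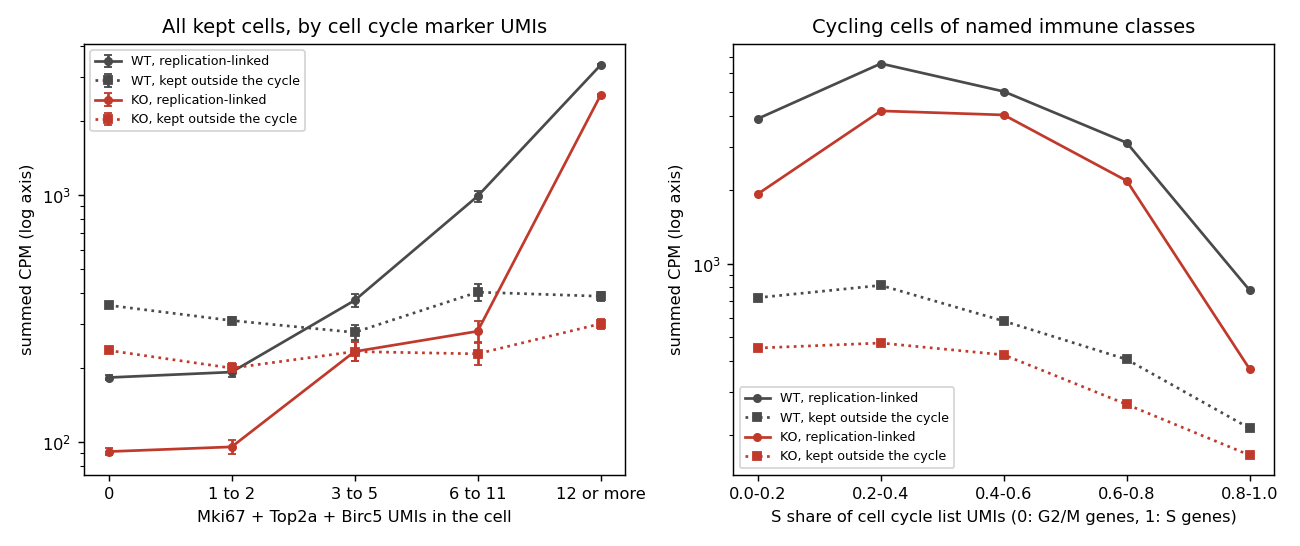
Summed CPM (log axis) of replication-linked members (solid lines) and members kept outside the cycle (dotted lines) in WT and KO. Left, all kept cells by their Mki67, Top2a and Birc5 UMIs, with 95% Poisson bars; right, cycling cells of named immune classes by S share, from G2/M genes at the left to S genes at the right. The WT solid line climbs from 182 to 3354 CPM on the left, and on the right it peaks at 6555 CPM and ends at 777 CPM.

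Within classes the same comparison mostly kept its direction. In CD8 T-like cells the histone sum was 4900 against 10316 CPM in WT and 4318 against 8882 CPM in KO, and in cDC2-like cells 1383 against 7113 CPM and 1050 against 3236 CPM. The cDC1-like cells (cDC1 and cDC2 are the conventional dendritic cell types; log2 ratio -1.12 in WT, -1.85 in KO) and regulatory T-like cells (-1.25 and -0.18) were on the same side. Macrophage-like cells were not uniform: the log2 ratio was 0.76 in WT on 12 S-leaning and 13 G2/M-leaning cells, and -2.26 in KO on 17 and 23 cells.

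Cycling cells of different classes differed widely in histone level. Among the 5 immune classes with at least 20 cycling cells in each library, CD8 T-like cells had the highest Hist1h2ap level in WT, 1874 CPM. In KO they had 1863 CPM and regulatory T-like cells were level with them (1874 CPM, against 883 CPM in WT). cDC1-like cells had 465 and 664 CPM, cDC2-like cells 783 and 415 CPM and macrophage-like cells 225 and 308 CPM. The intervals of CD8 T-like cells and of the 3 myeloid classes did not overlap in either library. Hist1h1b also ranged from 922 and 833 CPM in CD8 T-like cells to 179 and 184 CPM in macrophage-like cells. The position within the cycle differs between classes too, and its part in these levels was not tested.

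Some of these genes were far lower in melanoma-like cycling cells, and others were near the level of immune cells. Compared with cycling cells of the named immune classes, 18 of 52 members were at least 4-fold lower in them in both libraries, beside 12.4% of all genes, and 0 were at least 4-fold higher, beside 9.94%. Without the barcodes found in both libraries the counts were 20 of 52 (beside 12.3%) and 0 (beside 8.14%), on 27 WT and 14 KO melanoma-like cells. In that subset Hist1h2ap had 68.4 CPM in WT and 107 CPM in KO, against 1160 and 899 CPM in immune cells, and Hist1h1b 36.6 and 45.5 CPM against 606 and 470 CPM. Hist1h2ae, with 819 CPM in WT and 422 CPM in KO immune cells, differed much less, with log2 ratios of -0.65 in WT and -0.48 in KO. With all barcodes the direction of Hist1h2ae in KO turned, with log2 ratios of -1.13 in WT and 0.73 in KO, whereas Hist1h2ap stayed far lower (-4.24 and -4.48). Hist1h2ap had 1.34 to 2.40 UMIs per UMI of Hist1h2ae in the 5 immune classes with at least 20 cycling cells in each library, and 0.164 in WT and 0.0577 in KO melanoma-like cells with all barcodes. Without the shared barcodes, melanoma-like cells had 144 UMIs of Hist1h2ap against 1103 of Hist1h2ae in WT and 143 against 405 in KO, so the size of the KO ratio depended on those barcodes. Melanoma-like cycling cells were much deeper (median 98440 UMIs in WT, 145624 in KO), and the part of depth was not tested.

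**Figure D3:**
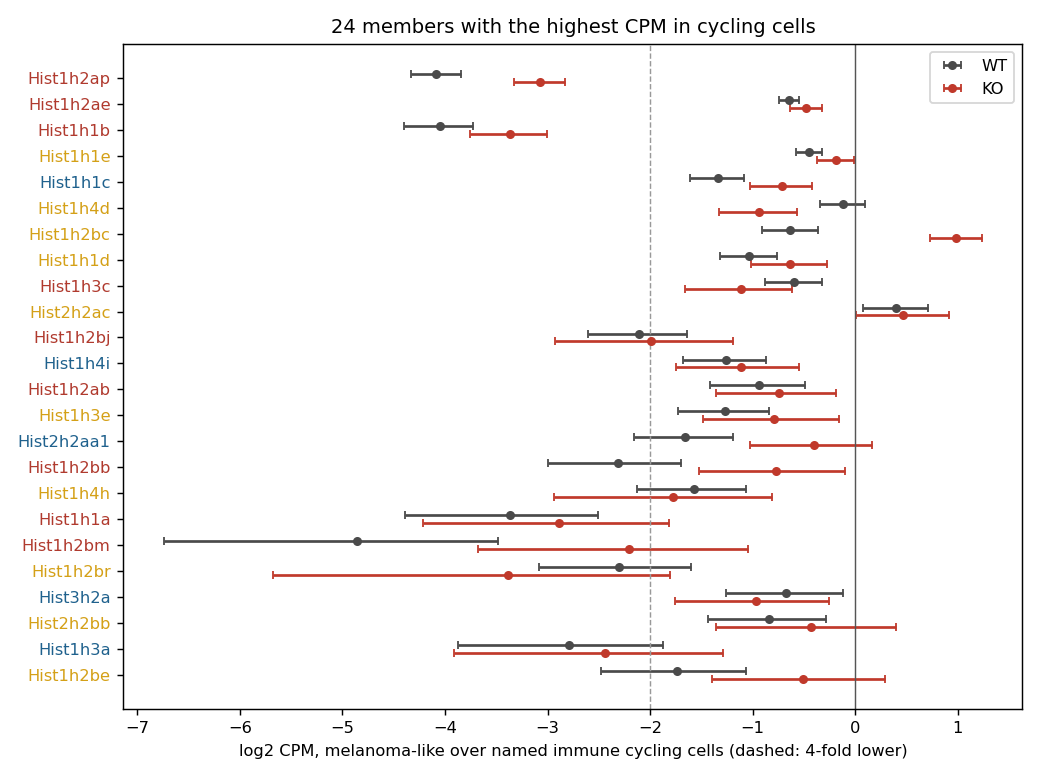
Log2 ratio of CPM in melanoma-like over named immune cycling cells, for the 24 members with the highest CPM in cycling cells, without barcodes found in both libraries; points are the WT and KO libraries, bars 95% binomial intervals, and gene names are coloured red (replication-linked), yellow (in between) or blue (kept outside the cycle). Hist1h2ap (-4.08 in WT, -3.07 in KO) and Hist1h1b (-4.05, -3.37) lie past the dashed 4-fold line, while Hist1h2ae (-0.65, -0.48) lies near 0.

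In non-cycling cells, the members kept outside the cycle were not evenly spread over the classes. Hist3h2a, whose model overlaps Trim17 on the same strand, was highest in pDC-like cells (plasmacytoid dendritic cells), with 75.0 CPM in WT and 88.1 CPM in KO, followed by cDC1-like (60.9 and 54.1 CPM) and cDC2-like cells (57.1 and 48.4 CPM). CD8 T-like cells had 9.88 CPM in WT and 6.73 CPM in KO. The dendritic classes thus stood above CD8 T-like cells in both libraries, with no overlap of the intervals. Neighbours in the order, such as cDC1-like and cDC2-like cells, did not differ beyond theirs.

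The other Hist3 cluster gene, Hist3h2ba, had another distribution: it was highest in pDC-like cells (49.0 CPM in WT, 36.5 CPM in KO), also high in CD4 T-like cells (35.2 and 28.5 CPM), and low in macrophage-like (6.01 and 1.55 CPM) and monocyte-like cells (1.45 and 0.64 CPM). The H4 genes Hist2h4 and Hist4h4 also had their highest level among named classes in pDC-like cells, at 37.5 and 21.3 CPM and at 41.1 and 31.9 CPM. Hist2h4 was nearly as high in B cell-like cells (34.9 and 20.7 CPM) and low in macrophage-like cells (3.76 and 2.40 CPM). Hist4h4 stood at 3.38 CPM in WT and at 4.28 CPM in KO cDC2-like cells.

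Hist1h1c was present in every class. In classes with at least 50 non-cycling cells in each library it ranged from 90.4 CPM in CD8 T-like cells to 213 CPM in B cell-like cells in WT, and from 58.8 CPM in monocyte-like cells to 183 CPM in B cell-like cells in KO. Neutrophil-like cells of WT, which had too few KO counterparts to compare, had 273 CPM of Hist1h1c and 212 CPM of Hist1h2bc, the highest of any WT class for both. Hist1h2bc otherwise lay between 19.3 and 93.8 CPM in WT named classes with KO counterparts, with its top in migratory DC-like cells. Hist1h1e was highest in NK-like cells among named classes, with 299 CPM (WT) and 209 CPM (KO).

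**Figure D4:**
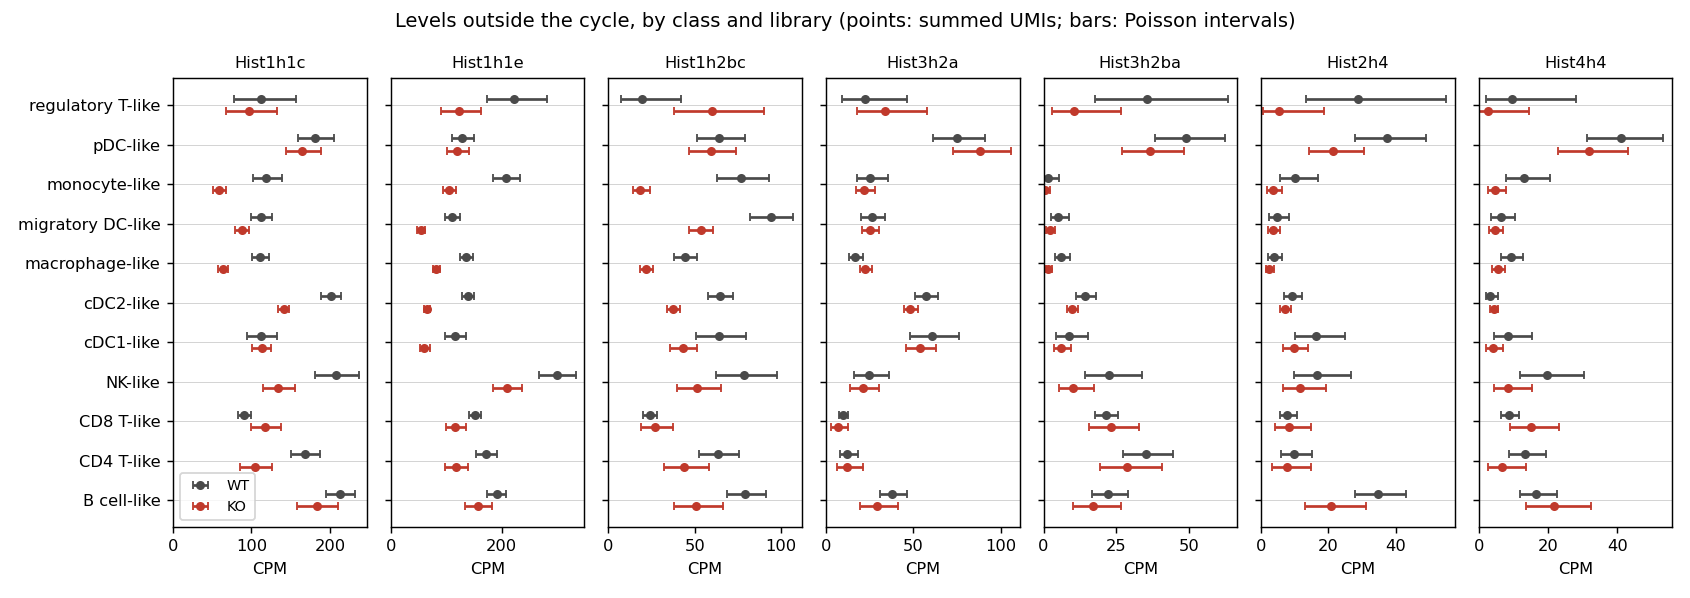
CPM in non-cycling cells of 7 members (panels) in each class with at least 50 such cells in each library (rows), with WT above KO in each row; points are summed UMIs as CPM and bars 95% Poisson intervals. Hist3h2a peaks in pDC-like cells (75.0 CPM in WT, 88.1 CPM in KO), and the lowest Hist1h1c value shown is 58.8 CPM, in KO monocyte-like cells.

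The annotated 3′ ends were set beside the cycling ratio. In 21 members the model ends within 100 bases of the stem-loop, in 20 it runs further and in 21 the model has no stem-loop. The groups contained 11, 2 and 10 replication-linked members and 5, 8 and 1 members kept outside the cycle, in that order. The median log2 ratio was 2.04 in WT and 2.84 in KO for models that end near the stem-loop, and 0.74 and 1.34 for those that run past it. The models without one had 2.09 and 2.41. A poly(A) signal in the last 60 bases was found in 14 members, of which 2 were replication-linked and 7 kept outside the cycle, and in 34.4% of all transcripts. The median log2 ratio was 0.64 in WT and 0.93 in KO with the signal, and 1.91 and 2.45 in the 48 members without it. These values describe annotated models and not the ends of the captured molecules. Several models without a stem-loop, such as those of Hist1h1b, Hist1h2ai, Hist1h2ak and Hist1h2an, end at the stop codon. A stem-loop past it could not be found in them.

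Promoters of 55 of 62 members were matched in RefSeq (GRCm38.p6), each from 250 bases before to 50 after the start. The 250 bases before the start are printed for a steeply cycling H3 gene, an abundant H2A gene, and an H4 gene kept outside the cycle. Capitals mark the motifs searched on both strands: CCAAT (or ATTGG), the octamer ATTTGCAT (or ATGCAAAT) and TATAAA (or TTTATA).
Hist1h3c, chr13:23745522-23745771, minus strand: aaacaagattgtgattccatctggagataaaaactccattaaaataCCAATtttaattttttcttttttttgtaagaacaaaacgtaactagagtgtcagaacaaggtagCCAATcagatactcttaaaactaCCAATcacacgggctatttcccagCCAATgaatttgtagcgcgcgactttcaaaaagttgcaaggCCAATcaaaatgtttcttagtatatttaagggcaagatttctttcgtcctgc
Hist1h2ae, chr13:23571221-23571470, minus strand: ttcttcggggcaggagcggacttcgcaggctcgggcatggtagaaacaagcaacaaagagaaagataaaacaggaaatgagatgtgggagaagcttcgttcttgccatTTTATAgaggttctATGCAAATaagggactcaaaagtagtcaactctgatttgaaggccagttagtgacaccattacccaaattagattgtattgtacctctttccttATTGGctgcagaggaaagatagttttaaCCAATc
Hist1h4i, chr13:22041363-22041612, minus strand: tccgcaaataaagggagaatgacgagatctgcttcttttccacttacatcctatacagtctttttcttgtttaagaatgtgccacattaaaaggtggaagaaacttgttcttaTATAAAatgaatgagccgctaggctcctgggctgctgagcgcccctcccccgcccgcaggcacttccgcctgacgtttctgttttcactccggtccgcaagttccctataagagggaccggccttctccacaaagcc

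The Hist1h3c window holds CCAAT 5 times, the Hist1h2ae window holds CCAAT, the octamer and TATAAA, and the Hist1h4i window holds TATAAA but no CCAAT. Over the whole 300 bases, CCAAT was found in 46 of 55 members (83.6%) and in 37.4% of all 32851 RefSeq promoters of that length. It was found in 22 of 23 replication-linked members, 16 of 20 in between and 8 of 12 kept outside the cycle. The histone class divided the members more sharply than the group did: all 4 H1, 16 H2A, 14 H2B and 9 H3 promoters held CCAAT, but 3 of 12 H4 promoters. The octamer was found in 6 H2A and 5 H2B promoters and in none of the other members (20% of members, 1.74% of all promoters). TATAAA was present in 58.2% of members and 13.6% of all promoters, and AAACACA, a motif known from H1 promoters, in 3 of 4 H1 promoters and 9.09% of members against 7.18% of all. A match describes letters in the window and no binding.

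The KO and WT libraries were compared in cycling cells first. Of the 52 members with at least 50 UMIs there, 0 were at least 1.5-fold higher in KO, beside 9.6% of all genes, and 20 were at least 1.5-fold lower, beside 7.91%. The summed level was 3396 CPM in WT and 2796 CPM in KO (log2 ratio -0.28). With WT weighted to the class make-up of KO, the log2 ratio was 0.0075, with 11 members lower and 2 higher. The share of all genes was not counted under this weighting, so these 2 counts have no background. The value over all cycling cells thus depended on how the classes were weighted, and the part of class make-up in the difference was not tested. Without melanoma-like cells, 35 of 52 members were lower (beside 10.2%) and 0 higher (beside 9.84%), with a log2 ratio of the sum of -0.53. Over all cycling cells, melanoma-like ones included, the largest ratio was that of Hist1h4n (5.12 CPM in WT, 1.22 CPM in KO). Among more abundant members over the same cells, Hist3h2ba (19.7 CPM in WT, 6.89 CPM in KO, log2 ratio -1.51), Hist1h2bp (19.7 and 7.29 CPM, -1.44) and Hist1h2bm (36.0 and 14.2 CPM, -1.34) were lower, all H2B genes.

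Within classes of cycling cells the direction was mixed. In CD8 T-like cells, 16 of 39 members were lower in KO (beside 10.1%) and 1 was higher (beside 9.38%), with a sum of 7313 CPM in WT and 6049 CPM in KO. Hist1h2ac (40.4 and 15.9 CPM) and Hist1h2bc (109 and 49.3 CPM) differed most there, and Hist1h3b was the member that was higher (36.6 and 55.7 CPM). In cDC2-like cells, 11 of 16 were lower (beside 8.28%) and 0 higher (beside 12.6%), with a sum of 3319 and 1727 CPM, led by Hist2h2ac (41.5 and 13.3 CPM) and Hist1h2bj (44.9 and 14.4 CPM). The related cDC1-like cells did not share this: 0 of 17 were lower (beside 3.03%) and 2, Hist1h1b (263 and 442 CPM) and Hist1h1c (72.5 and 111 CPM), were higher (beside 10.7%).

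In regulatory T-like cells, on 23 WT and 25 KO cycling cells, 5 of 11 members were higher in KO (beside 12.9%) and 0 lower (beside 10.8%), among them Hist1h2ap (883 and 1874 CPM). In macrophage-like cells, a class in which Lyz2-Cre is active, 5 members could be counted. Of these, Hist1h1e (322 and 140 CPM) and Hist1h1c (124 and 68.8 CPM) were lower in KO (beside 8.1%), and 0 were higher (beside 16.1%). The replication-linked sum differed within its counting interval there (790 and 726 CPM, log2 ratio -0.12, -0.37 to 0.13), on 25 and 40 cells. Whether these classes differ from each other was not tested.

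In melanoma-like cycling cells, 19 of 23 members were at least 1.5-fold higher in KO (beside 14.4%) and 2 lower (beside 6.07%), with a sum of 1296 CPM in WT and 2314 CPM in KO. Without the shared barcodes the direction turned: 2 of 16 were higher (beside 13.8%), 4 lower (beside 6.25%), and the sum was 1639 and 1290 CPM. That comparison therefore depended on 8 WT and 12 KO cells.

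In non-cycling cells the comparison was made in 7 classes with at least 200 such cells in each library. The summed level was lower in KO in 6 of them, and level in CD8 T-like cells (705 CPM in WT, 718 CPM in KO). In macrophage-like cells it was 581 CPM in WT and 359 CPM in KO (log2 ratio -0.69), with 11 of 18 members lower (beside 5.22%) and 0 higher (beside 6.41%). The largest difference there was Hist1h2ac (9.01 and 2.12 CPM, -2.09), followed by Hist1h1d (24.04 and 9.18 CPM) and Hist1h1b (35.3 and 13.98 CPM). Hist3h2a was not lower, at 16.8 and 22.6 CPM (0.43, 0.01 to 0.86). Migratory DC-like cells had 711 and 438 CPM, with 10 of 17 lower (beside 5.5%) and 0 higher (beside 5.05%), and cDC2-like cells 794 and 511 CPM, with 12 of 24 lower (beside 4.34%) and 0 higher (beside 4.04%).

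Lymphoid classes were on the same side, except for CD8 T-like cells. NK-like cells had 1334 CPM in WT and 863 CPM in KO, with 8 of 12 members lower (beside 5.96%) and 0 higher (beside 3.3%). CD4 T-like cells had 921 and 664 CPM, with 5 of 11 lower (beside 5.26%) and 1, Hist1h4d, higher (beside 4.78%). B cell-like cells, with 1192 and 943 CPM, had 5 of 19 lower (beside 6.99%) and 0 higher (beside 3.32%). In CD8 T-like cells, 2 of 22 were lower (beside 6.01%) and 3 higher (beside 6.53%).

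Some members recurred. Hist1h2ae was at least 1.5-fold lower in KO in 7 of 7 classes, Hist1h1d in 6, and Hist1h1b and Hist1h2bc in 5 each. Hist1h2ap, a like H2A gene, was that much lower in 1 of 7, migratory DC-like cells (43.9 CPM in WT, 23.1 CPM in KO).

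Depth moved with these values. Non-cycling cells of the KO library were deeper in 5 of the 7 classes, for example 9251 against 7302 UMIs at the median in migratory DC-like cells, and the histone CPM was lower in deeper cells inside each library. Over the named classes together it was 2044 CPM in WT cells under 2000 UMIs and 680 CPM in those of 16000 or more, and 1388 and 456 CPM in KO. At like depth, in cells of 4000 to 8000 UMIs, the log2 ratio of KO over WT was -0.86 in macrophage-like, -0.87 in cDC2-like and -0.49 in migratory DC-like cells, and -0.16 in B cell-like, -0.34 in CD4 T-like, -0.32 in NK-like and 0.06 in CD8 T-like cells. At 8000 to 16000 UMIs, the depth range with most cells of these myeloid classes, it was -0.55 in macrophage-like, -0.58 in cDC2-like and -0.59 in migratory DC-like cells, and in cDC2-like cells of 16000 or more UMIs -0.48. At 2000 to 4000 UMIs it was 0.02 in migratory DC-like cells (interval -0.29 to 0.32). The size of the difference thus varied with depth, and macrophage-like and cDC2-like cells were lower in KO at each depth with a value. Genotype cannot be told apart from the library, its mice and its preparation.

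**Figure D5:**
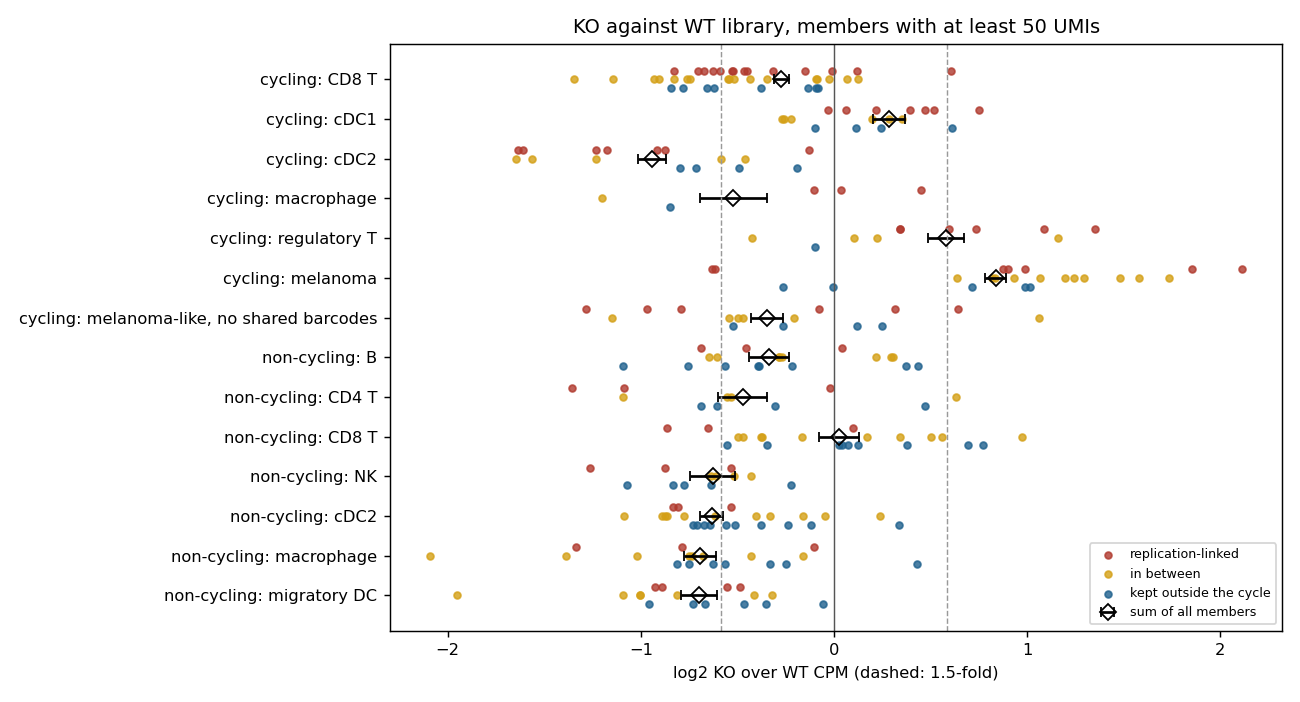
Log2 ratio of KO over WT CPM for each member with at least 50 UMIs (points, coloured by group) and for the sum of all members (open diamonds with 95% binomial bars), by class, in cycling and non-cycling cells; dashed lines mark 1.5-fold. The diamonds of non-cycling macrophage-like, migratory DC-like and cDC2-like cells lie at -0.69, -0.70 and -0.63, and that of melanoma-like cycling cells turns from 0.84 to -0.35 without shared barcodes.

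Lists of genes of the same pathway outside the clusters had smaller median cycling ratios than all members together, though single genes exceeded the members' median. Replication-independent variants, which can replace clustered histones outside S phase, had 1 of 11 measured genes at least 4-fold higher in cycling cells in both libraries, beside 8.18% of all genes: H2afx (103 against 19.0 CPM in WT, 93.9 against 15.97 CPM in KO), whose product marks DNA breaks. The variants H3f3a and H3f3b, both coding for H3.3, H2afy and H2afj were under 2-fold, and H3f3b was lower in cycling cells (2013 against 2598 CPM in WT, 1907 against 2731 CPM in KO). Of 14 genes of histone transcription and 3′ processing, Cdk2 alone reached 4-fold, a share near that of all genes, as for the variants, and Slbp had 133 against 68.1 CPM in WT and 124 against 59.2 CPM in KO. Of 14 chaperone genes, Asf1b (55.2 against 2.35 CPM in WT, 51.7 against 2.0 CPM in KO), Chaf1a and Chaf1b reached it. These 3 hand new H3 and H4 to replicating DNA. Daxx, which works with H3.3, was lower in cycling cells (25.2 against 35.7 CPM in WT, 30.2 against 49.96 CPM in KO). The median log2 ratios were 1.20 in WT and 0.85 in KO for the variants, 0.69 and 0.91 for the processing genes and 1.02 and 1.20 for the chaperones, against 1.61 and 2.04 for the clustered genes and 0.26 and 0.12 for the clustered genes kept outside the cycle.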

How the data were processed

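The deposited matrices hold raw UMI counts per gene and barcode, per the file headers; per the submitters' processing notes, Cell Ranger 3.1.0 and the build GRCm38 were used, with bcl2fastq 2.20 and Seurat 4.0.1, while the matrix header names Cell Ranger 4.0.0. The cell filter asked for 200 or more genes and a mitochondrial share of no more than 15%. Scrublet (scanpy 1.11.5) marked 0 WT and 2 KO cells, which were removed; it had not worked, so doublets remain. Cells were clustered (2000 variable genes, 30 components, 15 neighbours, Leiden resolution 1.0, 28 clusters) without the histone, variant, supply and cell cycle genes, and clusters were named "-like" from marker lists (at least 3 markers). The limits of naming were set after clusters had been seen; 2492 WT and 532 KO cells stayed unnamed.

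UMIs were summed per library and cell set and scaled to CPM. CPM carry exact Poisson 95% intervals and ratios exact conditional binomial ones (scipy 1.17.1); PCR and mice are not covered. With 0 UMIs on one side, 3 UMIs stood as the floor. Ratios entered a count with at least 50 UMIs over both libraries. The interval script was tested on simulated counts. The members and gene lists were chosen with earlier results of these data known. Named members are the 12 highest in cycling and in non-cycling cells, up to 6 past the fold in each direction of each KO and WT comparison, Hist1h1c, Hist1h2bc, those nearest the 20-UMI limit and up to 4 genes per list with the largest ratios; others were named after their values were seen: Hist1h3d, Hist1h3f, Hist1h4a, Hist1h4f and Slbp. Sites were searched in GENCODE M21 transcripts and RefSeq promoters. Alternatives covered the cycling call, cell filters, doublets, scaling, weighting by class, depth and shared barcodes.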

Additional observations from a re-analysis of the deposited data

How the results depend on the processing

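No paired analysis was possible because there is 1 library per genotype, and for the same reason no replicate could be left out. The number of replication-linked members, 23, ranged from 19 to 32, within 1.5 times under every alternative run. The number kept outside the cycle, 14, was 24 from WT alone and 9 with cycling called at 3 marker UMIs per 10000. The alternatives with shared barcodes left out, cells of 4000 to 8000 UMIs, classes of at least 20 cycling cells and immune list totals were chosen after seeing the data. The cause of the shifts below was not tested.

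The summed log2 ratio of cycling over non-cycling cells stayed above 0 under all alternatives. In WT (1.74) it was 1.79 without the 6% highest doublet scores, 1.87 without shared barcodes, 1.48 at 2 marker UMIs, 2.04 at 5, 1.96 at 3 per 10000, 2.12 without melanoma-like cells and 2.01 weighted by class. In KO (2.32) it was 2.04 at 2 marker UMIs, 2.54 at 5, 2.71 at 3 per 10000, 2.0 from per-cell means, 2.46 without melanoma-like cells and 2.04 weighted by class.

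The S-leaning over G2/M-leaning ratio depended on the cells used. In WT (-0.51) it was -0.98 without shared barcodes, -0.76 at 2 marker UMIs, -0.24 at 5, -0.13 at 3 per 10000, -0.62 from per-cell means, -1.30 without melanoma-like cells, -1.16 in named immune classes and -0.54 with no cell filter. In KO (-0.29) it was -1.08 without high doublet scores, -0.25 without mitochondrial and ribosomal protein genes, -0.86 without shared barcodes, -0.50 at 2 marker UMIs, -0.078 at 5, -0.68 from per-cell means, -1.07 without melanoma-like cells, -1.09 in named immune classes and -0.38 with no cell filter. At 3 marker UMIs per 10000 the KO value changed sign, to 0.35.

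For KO over WT in cycling cells, the summed log2 ratio (-0.28) was 0.0075 with WT weighted to KO classes, 0.026 with classes of at least 20 cells so weighted, and 0.20 in cells of 4000 to 8000 UMIs, so its direction is not settled. It was -0.43 without shared barcodes, -0.31 at 2 marker UMIs, -0.37 at 5, -0.12 at 3 per 10000, -0.79 from per-cell means, -0.53 without melanoma-like cells and -0.33 without the 5 cells with most histone UMIs per library. The 20 lower members became 11 and 8 under the weightings, 3 at 4000 to 8000 UMIs, 10 at a fold of 2, 46 from per-cell means and 35 without melanoma-like cells. The 0 higher members became 2 and 2 under the weightings, 3 at 4000 to 8000 UMIs, 1 without high doublet scores and 1 at 3 per 10000. Except for the set without melanoma-like cells, the share of all genes was not counted under these alternatives.

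In non-cycling cells, at 4000 to 8000 UMIs, the KO over WT ratio was -0.16 in B cell-like, -0.34 in CD4 T-like, -0.32 in NK-like, -0.87 in cDC2-like, -0.86 in macrophage-like and -0.49 in migratory DC-like cells. With all cells below 3 marker UMIs it was -0.083 in CD8 T-like and -0.80 in macrophage-like cells. Per-cell means gave -0.92 in NK-like, -0.84 in macrophage-like and -0.59 in migratory DC-like cells, and clusters built with all genes gave -0.79 in macrophage-like cells. Counting error limits members of few UMIs, and 1 library per genotype limits every comparison.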
